A study of Mus musculus with 14 samples.

Results

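The knockdown of TAZ in cultured 4T1 cells was described gene by gene from 6 of the 14 libraries of the series, namely 3 cultures of shTAZ cells and 3 cultures of shC cells. 4T1 is a mouse mammary carcinoma cell line. Both lines have the WT genotype and carry a lentiviral hairpin RNA that doxycycline switches on, directed against TAZ in shTAZ cells and scrambled in shC cells. They were kept as cell pools, each with a single hairpin sequence, so that an effect of TAZ and an off-target effect of that sequence cannot be told apart. The labels name no treatment, whereas the study states that the sequenced shTAZ and shC cultures had 48 h of 6 µM doxycycline. The library codes in the labels have the prefixes FY1, FY3 and FY5, each on 1 shTAZ and 1 shC culture, and the replicate numbers of the labels give the same 3 pairs. What the prefixes stand for is not given in the sources used here, so that p-values measure only the spread between these cultures, which may be technical.

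TAZ, encoded by Wwtr1, is a transcriptional coactivator with no DNA-binding domain of its own. LATS, which MST switches on, phosphorylates TAZ and its paralogue YAP, and the phosphorylated proteins are held in the cytoplasm or degraded. The unphosphorylated forms act through DNA-bound TEAD factors at promoters and enhancers, many of them of matrix and cytoskeletal genes. Several of these targets, such as Ajuba, Amotl2 and Lats2, encode regulators of the same pathway. In mammary carcinoma cells, high TAZ activity is known for its links to stem cell-like and invasive behaviour.

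The hairpin sequences are shown because they define the 2 lines. They are written as listed by the study, with bases 2 to 8 of the shTAZ strand, the seed if this strand is the guide, in capitals, and the target is the matching stretch of the Wwtr1 transcript.
shTAZ hairpin: gACGGGTGgaggttcacat
Wwtr1 target: atgtgaacctcCACCCGTc
shC hairpin: cacacaacatgtaaaccaggga
The reverse complement of the 19 bases of the shTAZ sequence occurred in GENCODE M21 transcripts of 1 gene, Wwtr1. It lies at 57501788 to 57501806 on the minus strand of chromosome 3 (GRCm38), in exon 3 of the 7 exons of the matched transcript, within the coding sequence from codon 165 to codon 171. The 22 bases of the shC sequence matched 0 transcripts on either strand. The seed match CACCCGT was present in the 3′ UTR of 38 of 1264 genes that were lower in all 3 pairs (3.01%), of 38 of 1051 that were higher in all 3 pairs (3.62%) and of 2.84% of all 8782 genes with an annotated 3′ UTR. The median 3′ UTR of these sets had 1159, 1026 and 1047 bases.

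The total count was 2243071 to 7959163 per shTAZ culture (median 2413107) and 6820673 to 14815813 per shC culture (median 10494087). The shC library was deeper in every pair, and the log2 ratio of normalized library size, shC over shTAZ, was 1.68 in FY1, 2.17 in FY3 and 0.79 in FY5. All 10 markers of 4T1 mammary carcinoma cells were listed in the table of counts, with a summed level of 4182 to 9392 CPM (counts scaled to a common library size after TMM normalization) in shTAZ cultures and 3741 to 6839 CPM in shC cultures. Of 23 leukocyte markers 10 were listed, at a summed 41.7 to 67.6 CPM in shTAZ and 23.2 to 33.1 CPM in shC cultures, and Ptprc, Cd3e and Adgre1 were not among them. Of 13 markers of fibroblasts and muscle 9 were listed, with a sum of 5.89 to 10.9 CPM in shTAZ and 4.35 to 7.87 CPM in shC cultures. Of 10 markers of endothelium and adipocytes 2 were listed, with a sum of 0.943 to 1.42 CPM in shTAZ and 0.297 to 1.58 CPM in shC cultures.

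Wwtr1 was the target and was lower in shTAZ cells. The gene lies on chromosome 3 of GRCm38 from 57455649 to 57575910, on the minus strand, and had 17, 25 and 51 counts in shTAZ FY1, FY3 and FY5, against 274, 319 and 377 counts in shC FY1, FY3 and FY5. These counts were 8.07, 10.4 and 6.01 CPM in shTAZ cultures and 40.7, 29.7 and 25.6 CPM in shC cultures. The 2 groups did not overlap. The mean was 8.17 ± 2.21 CPM in shTAZ and 32.0 ± 7.79 CPM in shC cultures (SD, n = 3 each), and the fall was 3.89-fold. With the pair as a block in edgeR's quasi-likelihood test, the log2 fold change, shTAZ over shC, was −1.96 (SE 0.32, Benjamini-Hochberg adjusted p = 0.00539). The exact two-sided permutation test of this gene alone gave p = 0.1 between the groups and 0.25 within pairs, the smallest values that 3 cultures against 3 and 3 pairs allow. The call was lost without FY5 (−1.90, edgeR adjusted p = 0.315) and after all libraries were thinned to the shallowest (−1.55, edgeR adjusted p = 0.973), and over all alternatives the adjusted p of Wwtr1 ran from 5.17e-06 to 1. Yap1, the gene of the paralogue YAP, was at 146, 206 and 131 CPM in shTAZ FY1, FY3 and FY5 and at 161, 151 and 136 CPM in shC FY1, FY3 and FY5. These groups overlapped, and the log2 fold change of Yap1 was 0.10 (SE 0.21, edgeR adjusted p = 0.994).

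Over all 9828 genes tested, 6 were called at an adjusted p under 0.05 (0.0611%), with 2 higher (0.0204%) and 4 lower (0.0407%) in shTAZ cells, and 543 (5.53%) had an unadjusted p under 0.05. DESeq2 also called 6, of which 4 were shared. Without FY1, FY3 or FY5, edgeR called 32, 15 and 2 genes. Counts were also simulated with these library sizes and the fitted dispersions, but without differences between pairs. There 42 of 97 genes given a log2 change of 1 were called, as were 92 of 98 given a change of 2 and 8 of 9472 given none. The real pairs did differ, so that these shares are no error rates for the cultures.

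Slpi, which encodes a secreted inhibitor of leukocyte serine proteases made by epithelia, was higher in shTAZ cells. It lies on chromosome 2 and was at 116, 89.7 and 56.9 CPM in shTAZ FY1, FY3 and FY5, against 61.7, 47.0 and 18.7 CPM in shC FY1, FY3 and FY5. It was higher in shTAZ in each pair, although shTAZ FY5 was below shC FY1. The log2 fold change of Slpi was 1.16 (SE 0.23, edgeR adjusted p = 0.0484). Polr2a, the gene of the largest subunit of RNA polymerase II on chromosome 11, was at 273, 286 and 263 CPM in shTAZ FY1, FY3 and FY5 and at 93.7, 83.9 and 215 CPM in shC FY1, FY3 and FY5. The groups did not overlap, while shC FY5 stood close to the shTAZ cultures, and the log2 fold change was 1.21 (SE 0.24, edgeR adjusted p = 0.0484). The within-pair differences of Polr2a were 1.54, 1.77 and 0.29 log2 CPM in FY1, FY3 and FY5, beside the log2 depth ratios of 1.68, 2.17 and 0.79, and the part of depth in this result was not tested. The calls of Slpi and Polr2a were both lost without TMM scaling (edgeR adjusted p = 0.148 and 0.0957) and in thinned counts (0.955 and 0.38). Their log2 fold changes in thinned counts were 0.96 for Slpi and 1.34 for Polr2a. Among genes with a mean count of 20 or more neither was called (0.0798 and 0.0962), so that 4 lower and 0 higher genes were called in that set (494 with an unadjusted p under 0.05), and neither was called when each culture had to hold 10 counts or more (0.081 for both). That of Slpi was lost without FY5 (adjusted p = 1) and that of Polr2a without FY3 (0.127).

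Beside Wwtr1, the called genes lower in shTAZ cells were Rpl29, Gapdh and Mir692-1, and all 3 have near-identical copies, so that their counts are uncertain. Rpl29, which encodes a protein of the large ribosomal subunit and lies on chromosome 9, was at 5.69, 7.51 and 5.54 CPM in shTAZ FY1, FY3 and FY5, against 26.6, 20.9 and 24.7 CPM in shC FY1, FY3 and FY5. The groups were far apart in all 3 pairs, and the log2 fold change of Rpl29 was −1.95 (SE 0.34, edgeR adjusted p = 0.0117, and 0.784 without FY5). The last 300 bases of its transcript matched transcripts of 34 other genes at 95% identity or more over at least 75 bases, 32 of them pseudogenes. Gapdh, the gene of a glycolytic enzyme often used as a reference, had 46, 35 and 64 counts in shTAZ FY1, FY3 and FY5 and 142, 12463 and 11326 counts in shC FY1, FY3 and FY5. The FY1 cultures were close, at 21.8 CPM in shTAZ and 21.1 CPM in shC, the log2 fold change of Gapdh was −4.84 (SE 0.78, edgeR adjusted p = 0.00539, and 1 without FY5), and 124 other genes shared the sequence of its end. Gapdh also ranged from 14.7 to 1394 CPM among shTAZ tumours and from 16.1 to 601 CPM among shC tumours. The position named Mir692-1 had 4, 2 and 12 counts in shTAZ FY1, FY3 and FY5 and 6, 5 and 3550 counts in shC FY1, FY3 and FY5, so that its call (log2 fold change −6.04, SE 0.99, edgeR adjusted p = 0.00539, and 0.998 with DESeq2) rests on shC FY5 alone. It shares its sequence with 12 genes, among them Ftl1, the ferritin light chain gene, and the libraries count the ends of polyadenylated transcripts, not mature microRNAs.

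**Figure D1:**
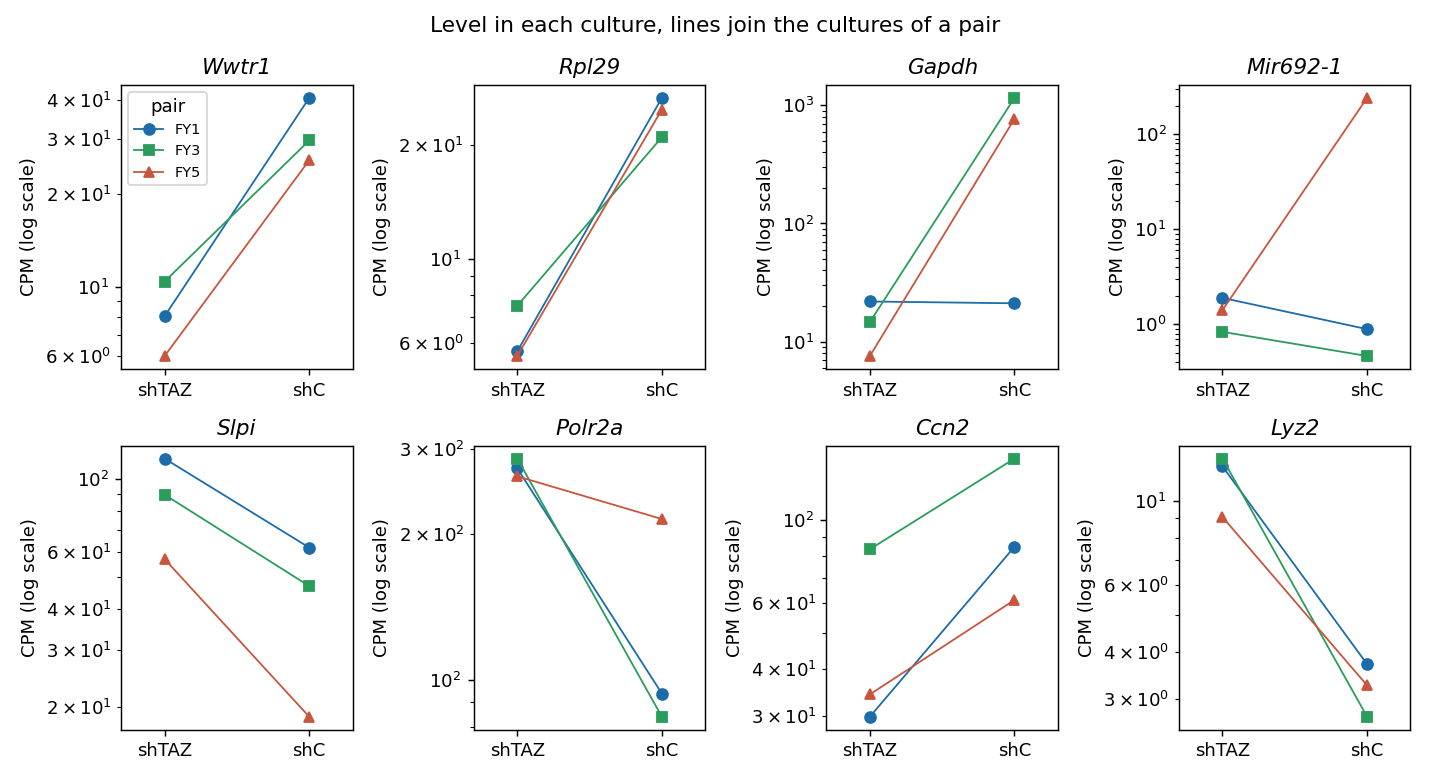
Level of 8 genes in each culture in CPM on a log axis, shTAZ left and shC right, with a line joining the cultures of a pair (FY1, FY3, FY5). The lines of Wwtr1 and Rpl29 run side by side, whereas the FY1 values of Gapdh were close and Mir692-1 was high in shC FY5 only.

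At gene level, 9035 of the 11793 listed genes had a mean count of 20 or more. The within-pair difference, shTAZ minus shC in log2 CPM with a prior count of 2, had the same sign in all 3 pairs for 2366 of these genes (26.2%), called concordant here. In shTAZ cells 1079 were higher (11.9%) and 1287 lower (14.2%). The values themselves chose these genes, and no test is attached to the choice. Where either sign is equally likely in each pair, all 3 signs agree for 25% of genes. How many of the 2366 genes respond to the knockdown was not tested. Over all 9035 genes the differences of FY1 and FY3 had a correlation of r = −0.01, those of FY1 and FY5 of 0.08 and those of FY3 and FY5 of 0.06, given as a description over genes, in libraries of unequal depth. In the 1402 genes with a mean count of at least 1000, r was −0.16, 0.09 and 0.34 for the same pairs of differences. The median difference over all genes was −0.04, −0.01 and −0.03 in FY1, FY3 and FY5.

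The concordant differences were mostly small. The median of the mean difference was 0.37 log2 CPM for the higher genes (middle 50% of genes 0.25 to 0.56) and the median size was 0.42 for the lower genes (0.28 to 0.62). The SD of the 3 differences had a median of 0.23 in the higher and 0.27 in the lower genes, against 0.48 in the 6669 genes of mixed sign. Spread fell with depth, since the median SD of the 3 differences was 0.78 for genes with a mean count of 20 to 50 and 0.28 for those above 1000, while the concordant share was 25% and 24.2% in these classes. A difference of at least 0.5 log2 CPM in every pair was found for 73 concordant higher genes, 102 concordant lower genes and 385 genes of mixed sign. At a difference of at least 1 in every pair these counts were 4, 9 and 26. The shTAZ and shC cultures did not overlap for 223 concordant higher and 270 concordant lower genes, which were 2.47% and 2.99% of all 9035. Groups of 3 cultures that do not overlap reach at best p = 0.1 in the exact two-sided permutation test, so that a lack of overlap alone is no call. In counts thinned to the shallowest culture 2369 genes were concordant, of which 1278 were higher and 1091 lower, and 1288 of them were concordant in the same direction in the full counts.

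Krt17 was among the 12 concordant higher genes whose smallest difference was largest. Krt17, a keratin gene of basal and stressed epithelium, was at 9.49, 7.93 and 2.12 CPM in shTAZ FY1, FY3 and FY5 and at 3.12, 2.70 and 0.952 CPM in shC FY1, FY3 and FY5. It was lowest in FY5 in both lines, and shTAZ FY5 lay below shC FY1 and FY3. Man1a (mean difference 0.95 log2 CPM), which encodes a Golgi mannosidase, and Dnm1 (0.98), which encodes the membrane-severing GTPase dynamin, also stood in this set, together with Map3k6 (1.01), the gene of a stress-activated kinase. None of these passed the test over all genes, apart from Slpi.

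Lyz2, the lysozyme gene of myeloid cells, had the largest smallest difference of all concordant higher genes. It had 26, 31 and 77 counts in shTAZ FY1, FY3 and FY5 and 25, 29 and 48 counts in shC FY1, FY3 and FY5, which were 12.3, 12.9 and 9.07 CPM in shTAZ and 3.71, 2.70 and 3.26 CPM in shC cultures. The raw counts were thus alike within FY1 and FY3, and the differences of Lyz2 were 1.66, 2.16 and 1.40 log2 CPM beside the depth ratios of 1.68, 2.17 and 0.79. The end of the Lyz2 transcript also matched that of 1 other gene, Lyz1. C1qa, a complement gene of macrophages, had 28, 28 and 44 counts in shTAZ FY1, FY3 and FY5 and 37, 35 and 45 in shC FY1, FY3 and FY5, with differences of 1.24, 1.76 and 0.71. The 3 leukocyte markers with a mean count of at least 20, Lyz2, C1qa and Cd68, were all concordant higher, with a median difference of 1.24 against −0.03 over all genes. The part of depth and of other cells' RNA in these differences was not tested.

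The 12 concordant lower genes with the largest smallest difference included Wwtr1, Rpl29 and genes of diverse roles. Adam12, which encodes a membrane-anchored metalloprotease of invasive breast cancer cells, was at 2.85, 5.43 and 7.19 CPM in shTAZ FY1, FY3 and FY5 and at 9.05, 11.5 and 19.4 CPM in shC FY1, FY3 and FY5. It was lower in shTAZ in each pair by 1.58, 1.05 and 1.40 log2 CPM (log2 fold change −1.36, SE 0.39, edgeR adjusted p = 0.418). Cxcl3, a gene of a neutrophil-attracting chemokine, had 2, 1 and 12 counts in shTAZ FY1, FY3 and FY5 and 26, 43 and 60 counts in shC FY1, FY3 and FY5. S100a7a, which encodes a calcium-binding protein of epithelial defence, had 5, 5 and 11 counts in shTAZ cultures and 39, 68 and 98 in shC cultures. Ddah1, whose enzyme degrades an inhibitor of nitric oxide synthesis, was at 5.69, 6.26 and 4.01 CPM in shTAZ and at 11.4, 18.6 and 12.2 CPM in shC cultures. H2ac6, a histone H2A gene, had at most 3 counts per shTAZ culture and 14, 73 and 61 in shC FY1, FY3 and FY5. These groups of cultures did not overlap for Cxcl3, S100a7a, Ddah1 and H2ac6, and the edgeR adjusted p was 0.7, 0.53, 0.373 and 0.306.

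**Figure D2:**
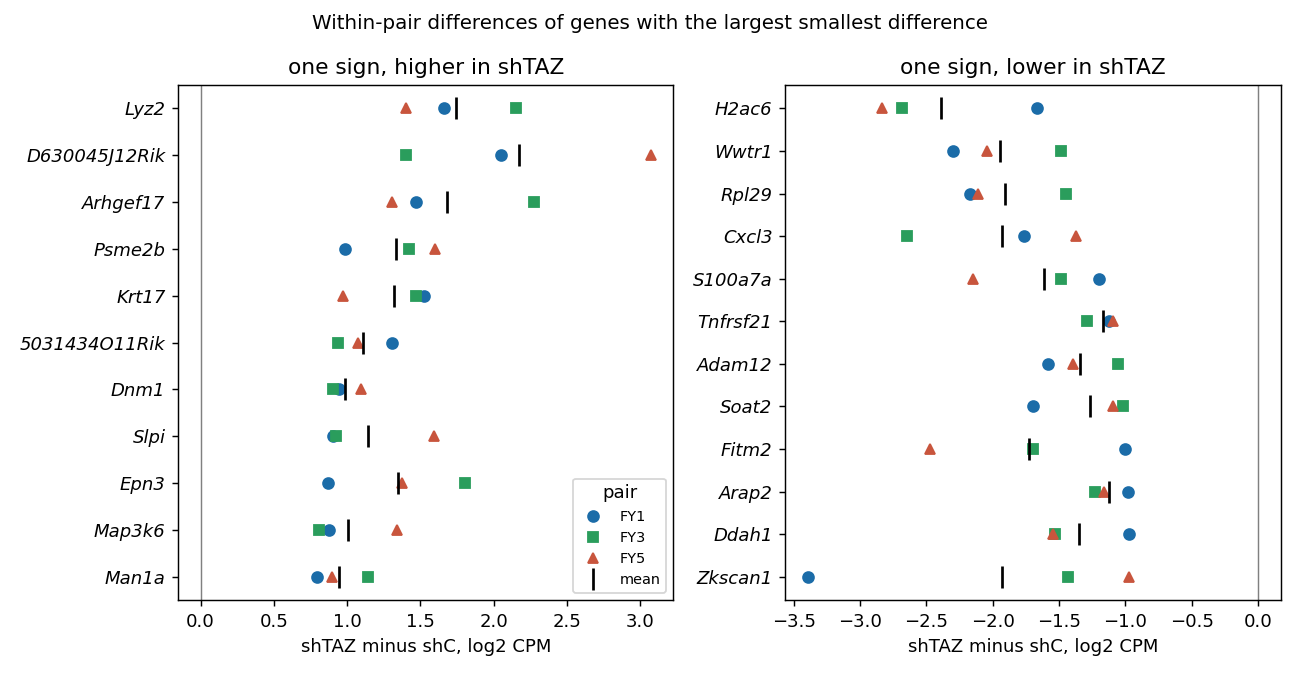
Within-pair difference (shTAZ minus shC, log2 CPM) of concordant genes with the largest smallest difference (11 higher and 12 lower), 1 symbol per pair and a tick at the mean. The pairs of Wwtr1 lie at −2.30, −1.48 and −2.04 and those of Lyz2 at 1.66, 2.16 and 1.40.

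Of 30 YAP/TAZ target genes with a mean count of at least 20, 10 were concordant lower and 5 concordant higher (33.3% and 16.7%, against 14.2% and 11.9% of all genes). Their median difference was −0.24 log2 CPM, against −0.03 over all genes, and 0 of 31 tested were called. In thinned counts 12 were concordant lower and 3 higher (40% and 10%, against 12.1% and 14.1% of all genes). Ccn2, the gene of a matricellular growth factor and a classical target, was at 29.9, 83.5 and 34.3 CPM in shTAZ FY1, FY3 and FY5, against 84.8, 146 and 61.2 CPM in shC FY1, FY3 and FY5. It was lower in shTAZ in each pair, but shTAZ FY3 lay above shC FY5, and the log2 fold change of Ccn2 was −1.01 (SE 0.23, adjusted p = 0.155 with edgeR and 0.0499 with DESeq2). Anxa1, which encodes a membrane-binding annexin, was at 36.5, 72.2 and 7.54 CPM in shTAZ and 57.9, 111 and 16.9 CPM in shC cultures, a mean difference of −0.81 ± 0.28 (SD, n = 3 pairs). Ajuba, a LIM protein gene, was at 27.1, 134 and 151 CPM in shTAZ FY1, FY3 and FY5 and at 126, 145 and 242 CPM in shC FY1, FY3 and FY5, with most of its difference in FY1. By the same search as for Rpl29, the end of the Ajuba transcript matched transcripts of 45 other genes, 0 of them pseudogenes. The part of such matches in its counts was not tested. Ccn1, a close relative of Ccn2, was lower by 0.17, 0.39 and 0.33 log2 CPM in FY1, FY3 and FY5. Ankrd1, another classical target, had differences of −0.29, 0.14 and −0.81. Arhgef17, a gene of a guanine nucleotide exchange factor, went the other way, at 12.8, 9.60 and 10.1 CPM in shTAZ and 4.45, 1.77 and 3.94 CPM in shC cultures.

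The motif bound by TEAD factors, GGAATG on either strand, was searched in RefSeq promoters (GRCm38.p6, 250 bases before to 50 after the gene's start). Promoters were at hand for 21 of the 30 target genes, and Ccn2 was not among these. The motif was present in 10 of the 21 (47.6%), against 13.7% of 7302 genes with a mean count of at least 20 and 14.7% of all 32851 promoters. Since YAP and TAZ act on their targets through TEAD factors, this share describes the list and is no result of the knockdown. Among the concordant targets it was in 6 of 8 that were lower and 1 of 2 that were higher. Over all genes the share was 14% of 1042 concordant lower and 15.4% of 879 concordant higher genes. The 30 bases around each motif of the 6 concordant lower targets are shown on the strand of the gene, with the motif in capitals.
Ajuba, chr14:54577830-54577859, minus strand: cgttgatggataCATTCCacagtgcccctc
Ajuba, chr14:54577808-54577837, minus strand: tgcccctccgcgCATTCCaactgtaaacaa
Amotl2, chr9:102717727-102717756, plus strand: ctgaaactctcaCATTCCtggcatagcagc
Anxa1, chr19:20390890-20390919, minus strand: actgcactgaacCATTCCtgtgaggaataa
Axl, chr7:25788949-25788978, minus strand: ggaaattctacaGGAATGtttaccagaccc
Ccn1, chr3:145650071-145650100, minus strand: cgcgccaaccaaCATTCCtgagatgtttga
Lats2, chr14:57746102-57746131, minus strand: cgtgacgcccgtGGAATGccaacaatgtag
The match in Lats2 lies just after the start and the others before it. A match describes these letters only and is no binding site by itself.

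Of 33 Hippo pathway and TEAD genes, 13 were concordant lower and 1 concordant higher (39.4% and 3.03%), with a median difference of −0.21 log2 CPM. Wwtr1, Ajuba, Amotl2, Lats2 and, among the higher, Ptpn14 are in this count, and the last 4 are also in the list of targets. Lats1, the gene of a kinase that phosphorylates YAP and TAZ, was at 15.2, 28.0 and 27.3 CPM in shTAZ FY1, FY3 and FY5 and at 27.2, 30.7 and 47.7 CPM in shC FY1, FY3 and FY5. Lats2, its paralogue, differed by −0.45, −0.04 and −0.91 log2 CPM in FY1, FY3 and FY5, so that FY3 was close to 0. Map4k3, a kinase gene upstream of LATS, differed by −0.42, −0.79 and −0.60. Stk4, which encodes MST1, differed by −0.18, −0.44 and −0.22. Tead1 had differences of −0.13, −0.05 and −0.36 and Tead4 of −0.64, −0.17 and −0.43, whereas Tead2 (−0.32, −0.57 and 0.66) and Tead3 (0.47, −0.08 and 0.65) were of mixed sign. Of the 33 genes only Wwtr1 passed the test. In thinned counts 9 were concordant lower and 2 higher (27.3% and 6.06%, against 12.1% and 14.1% of all genes).

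Of 24 amino acid response and ATF4 target genes, 11 were concordant lower and 0 concordant higher (45.8%), with a median difference of −0.34 log2 CPM and 0 of 25 called. ATF4 is a transcription factor that is translated when amino acids are short or the endoplasmic reticulum is stressed. Psat1, an enzyme gene of serine synthesis, was at 182, 202 and 155 CPM in shTAZ FY1, FY3 and FY5 and at 217, 418 and 365 CPM in shC FY1, FY3 and FY5. Shmt2, which encodes a mitochondrial serine hydroxymethyltransferase, was at 430, 325 and 303 CPM in shTAZ and 589, 874 and 513 CPM in shC cultures (log2 fold change −0.87, SE 0.21, edgeR adjusted p = 0.223). The shTAZ and shC cultures did not overlap for Psat1 and Shmt2. Asns, the asparagine synthetase gene, was at 236, 262 and 587 CPM in shTAZ and 322, 489 and 833 CPM in shC cultures, lower in each pair with FY5 high in both lines. Nars, the asparaginyl-tRNA synthetase gene, differed by −0.32, −0.34 and −0.31, the most even of these genes. Atf4 itself was of mixed sign (−0.37, 0.15 and −0.21).

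Of 38 mitosis and G2/M genes, 15 were concordant lower and 0 concordant higher (39.5%), with a median difference of −0.19 log2 CPM and 0 of 40 called. Ccnb1, the gene of the mitotic cyclin B1, was at 9.97, 15.4 and 7.42 CPM in shTAZ FY1, FY3 and FY5, against 17.4, 32.6 and 15.0 CPM in shC FY1, FY3 and FY5. Prc1, which encodes a crosslinker of the mitotic spindle, was at 31.8, 23.4 and 31.0 CPM in shTAZ and 36.5, 85.4 and 52.8 CPM in shC cultures. Ccnb1 differed by about the same amount in each pair (−0.95 ± 0.15, SD, n = 3 pairs), while the difference of Prc1 lay mostly in FY3. Of 36 S phase and DNA replication genes, 7 were concordant lower and 5 concordant higher (19.4% and 13.9%), near the 14.2% and 11.9% of all genes. Of 34 proteasome subunit genes, 11 were concordant lower and 2 higher (32.4% and 5.88%). In thinned counts these were 5 and 3 (14.7% and 8.82%), against 12.1% lower and 14.1% higher of all genes. In thinned counts 10 mitosis genes were concordant lower and 1 higher, and of the ATF4 targets 9 lower and 0 higher.

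Of 16 secretory epithelial and defence genes, 8 were concordant higher and 0 concordant lower (50%), with a median difference of 0.18 log2 CPM and 1 of 16, Slpi, called. Lcn2, which encodes the siderophore-binding protein lipocalin 2, was at 15.2, 15.0 and 49.0 CPM in shTAZ FY1, FY3 and FY5 and at 12.8, 5.30 and 15.6 CPM in shC FY1, FY3 and FY5. Cldn7, a claudin gene of tight junctions, was higher in each pair, by 0.39, 0.60 and 0.54 log2 CPM in FY1, FY3 and FY5. Of 24 epithelial junction and keratin genes, 9 were concordant higher and 2 lower (37.5% and 8.33%). Krt18, a keratin gene of simple epithelium, was at 4946, 4085 and 2317 CPM in shTAZ FY1, FY3 and FY5 and at 3658, 2452 and 2167 CPM in shC FY1, FY3 and FY5. Lama3, a laminin gene of epithelial basement membrane, differed by 0.38, 1.38 and 0.68. Krt7, Krt8, Krt18 and Cldn7 are in both lists. In thinned counts 5 secretory genes were concordant higher and 1 lower (31.2% and 6.25%). Of the junction and keratin genes 5 were then higher and 1 lower (20.8% and 4.17%). The shares over all genes in thinned counts were 14.1% higher and 12.1% lower. Spp1, the osteopontin gene, was at 385, 343 and 375 CPM in shTAZ and 231, 253 and 124 CPM in shC cultures, with no overlap, and its log2 fold change was 0.94 (SE 0.22, edgeR adjusted p = 0.207).

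**Figure D3:**
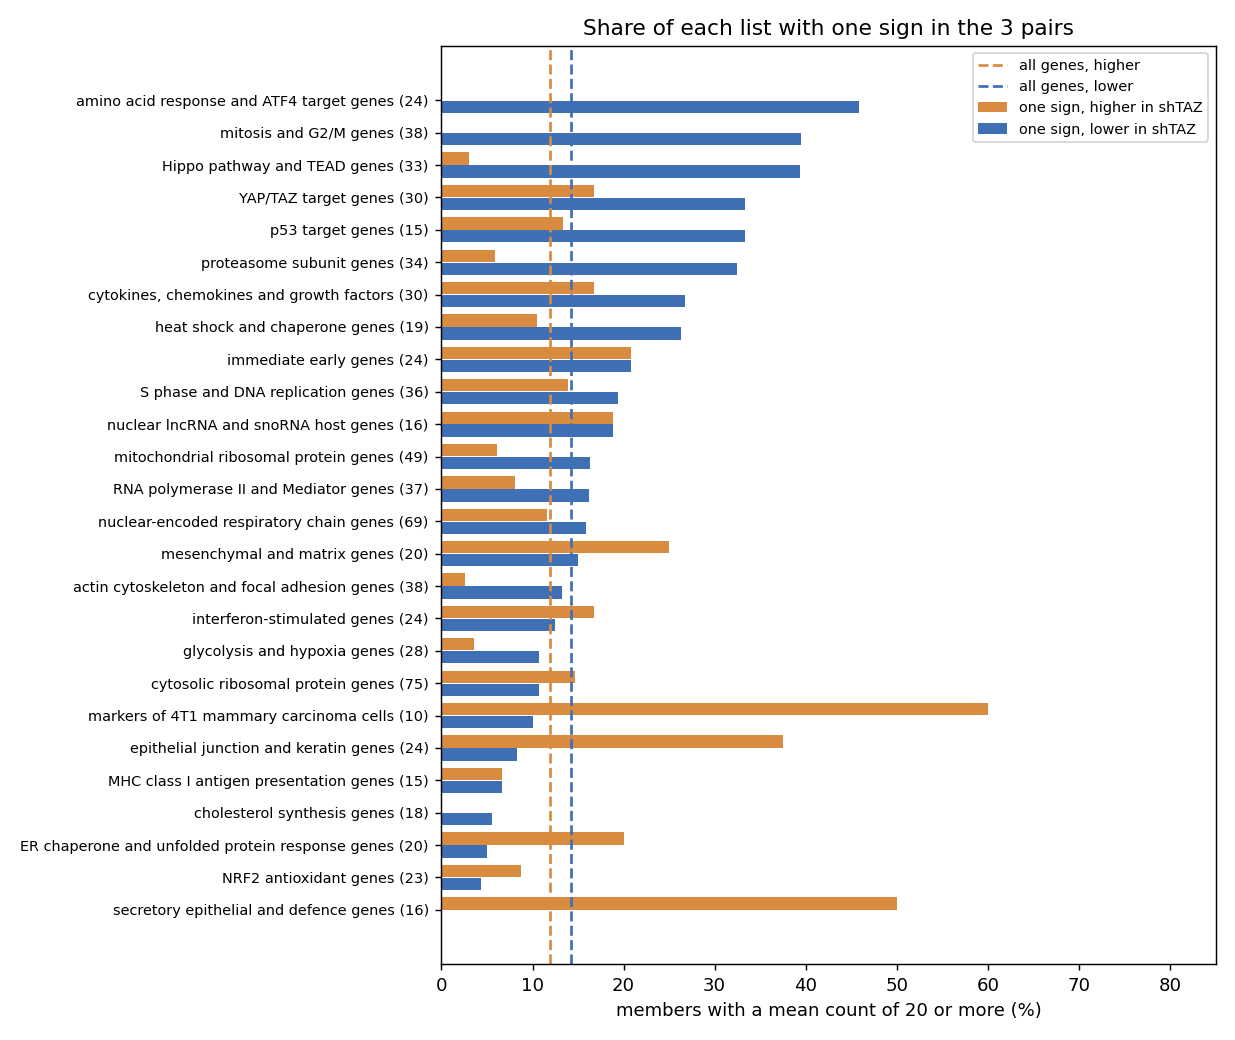
Share of each list's genes (number with a mean count of at least 20 in brackets) that were concordant higher or lower in shTAZ cells in the 3 pairs, with dashed lines at the shares over all genes (11.9% and 14.2%). The concordant lower share was 45.8% for ATF4 targets, 39.5% for mitosis genes and 39.4% for Hippo genes.

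Other lists ranged on either side of the 26.2% of all genes that were concordant. Of 75 cytosolic ribosomal protein genes 11 were concordant higher and 8 lower (25.3% in all), and of 69 nuclear-encoded respiratory chain genes 8 and 11 (27.5%). Of 28 glycolysis and hypoxia genes 1 was higher and 3 lower (14.3%), and of 18 cholesterol synthesis genes 0 and 1 (5.56%). Of 15 p53 target genes 2 were higher and 5 lower (46.7%), of 30 cytokine, chemokine and growth factor genes 5 and 8 (43.3%), and of 20 mesenchymal and matrix genes 5 and 3 (40%). Of 24 immediate early genes 5 were higher and 5 lower (41.7%). Klf6, a growth-responsive zinc finger factor gene, was at 15.2, 42.6 and 50.2 CPM in shTAZ FY1, FY3 and FY5 and at 35.2, 69.3 and 109 CPM in shC FY1, FY3 and FY5, lower in shTAZ in each pair. Myc differed by −0.26, −0.55 and −1.01 in FY1, FY3 and FY5. Il23a, a cytokine gene that the study names, was of mixed sign at 9.02, 24.6 and 31.6 CPM in shTAZ and 9.65, 14.6 and 50.6 CPM in shC cultures. Ccn4, which encodes another matricellular protein the study names, had 1, 8 and 30 counts in shTAZ cultures and 11, 81 and 74 counts in shC cultures, lower in each pair (edgeR adjusted p = 0.947).

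The FY5 cultures stood apart from FY1 and FY3 in both lines. FY5 was set against the mean of FY1 and FY3, with the line and the difference between FY3 and FY1 as terms. It was called for 1850 of 9828 genes (18.8%), with 858 higher (8.73%) and 992 lower (10.1%) in FY5. The p-values of this comparison measure the scatter between the lines within prefixes, not the spread between prefixes. FY5 is a single prefix, so whether it differs more than prefixes usually do was not tested. Both FY5 cultures were above all 4 others for 1886 of 9035 genes (20.9%) and below them for 1792 (19.8%). The difference was at least 2-fold in both lines for 389 genes higher and 390 lower in FY5. The FY5 difference in shTAZ and that in shC had r = 0.64 over the 9035 genes, a description over genes. Of the 1079 concordant higher genes, 24.5% were called lower in FY5 and 3.61% higher. Of the 1287 concordant lower genes, 20% were called higher in FY5 and 3.96% lower. For the 6669 genes of mixed sign these shares were 8.34% higher and 9.76% lower. The same cultures gave both comparisons, so that their results for the gene lists are not separate findings. FY5 was also the deepest library of each line, and after thinning to the shallowest culture 933 genes were called, 898 of them among the 1850. The part of depth in this result was not tested. In shC cultures alone 1451 genes were called and in shTAZ cultures alone 239, each with 1 residual degree of freedom.

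**Figure D4:**
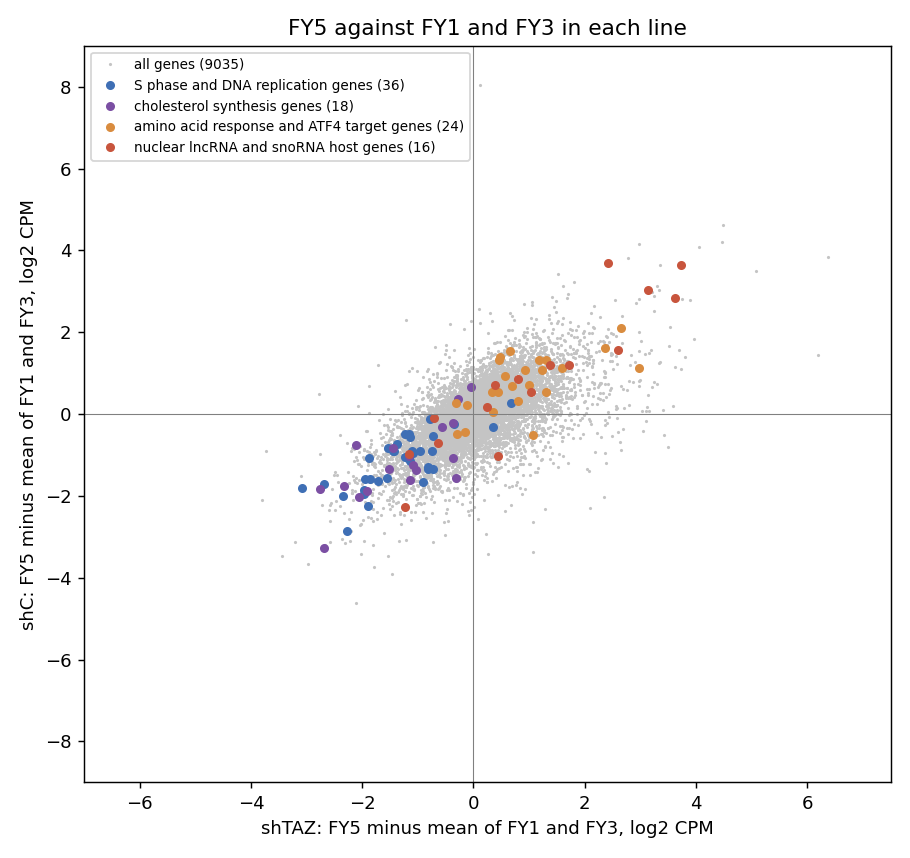
FY5 minus the mean of FY1 and FY3 in log2 CPM, shTAZ cultures across and shC cultures up, for 9035 genes (grey) and 4 lists (colours). S phase and cholesterol synthesis genes lie below 0 in both lines for the most part, and snoRNA host genes and ATF4 targets for the most part above 0.

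Higher in FY5 were noncoding host genes of small nucleolar RNAs and genes of the integrated stress response. Snhg12, a small nucleolar RNA host, was at 704 CPM in shTAZ FY5, against 54.1 and 50.9 CPM in shTAZ FY1 and FY3, and at 911 CPM in shC FY5, against 60.0 and 89.1 CPM in shC FY1 and FY3. Its log2 difference was 3.67 (SE 0.21, edgeR adjusted p = 2.92e-12). Zfas1 was higher by 3.07 (SE 0.20, edgeR adjusted p = 1.87e-11) and Gas5, named like the other list members below after its values were seen, by 3.24 (SE 0.21, edgeR adjusted p = 1.87e-11). Of 16 nuclear lncRNA and snoRNA host genes, 8 were called higher and 2 lower in FY5, against 8.73% and 10.1% of all genes. Transcripts of such hosts are known to be degraded by nonsense-mediated decay when they are translated. Ppp1r15a, which encodes a phosphatase subunit that reverses the stress arrest of translation, was at 276 CPM in shTAZ FY5 and 28.5 and 26.7 CPM in shTAZ FY1 and FY3, and at 347 CPM in shC FY5 and 35.0 and 43.9 CPM in shC FY1 and FY3. Atf3, a stress-induced transcription factor gene, was higher by 3.18 (SE 0.22, edgeR adjusted p = 4.83e-11).

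Of 25 amino acid response and ATF4 target genes tested, 13 rose and 0 fell in FY5, against 8.73% and 10.1% of all genes. Their median log2 difference was 0.88, against 0.02 over all genes. Ddit3, which encodes the stress factor CHOP, was at 394 CPM in shTAZ FY5 and 68.3 and 56.3 CPM in shTAZ FY1 and FY3, and at 474 CPM in shC FY5 and 110 and 109 CPM in shC FY1 and FY3. Within each pair it was lower in shTAZ, by 0.69, 0.95 and 0.26 log2 CPM in FY1, FY3 and FY5. Gadd45a, a stress and p53 target gene, rose by 2.52 (SE 0.20, edgeR adjusted p = 8.92e-10) and Trib3 by 1.95 in FY5. Myc rose by 1.43 (SE 0.20, edgeR adjusted p = 1.39e-05). Cox6a2, which encodes a muscle-type subunit of cytochrome c oxidase, had 226 counts in shTAZ FY5 and 1 and 4 in shTAZ FY1 and FY3, and 752 counts in shC FY5 and 5 and 43 in shC FY1 and FY3.

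Lower in FY5 were genes of replication, mitosis, sterol synthesis and epithelial keratins. Of 38 S phase and DNA replication genes tested, 29 fell and 0 rose in FY5, with a median log2 difference of −1.18, and of 40 mitosis and G2/M genes 23 fell and 0 rose (median −1.06). Of all genes tested, 10.1% fell and 8.73% rose. In thinned counts 22 of 35 S phase genes and 18 of 38 mitosis genes fell, as did 8 of 18 cholesterol synthesis genes, and 11 of 22 ATF4 targets rose. Among all 8428 genes tested in thinned counts, 525 fell and 408 rose. Gins2, a subunit gene of the replicative helicase, was at 43.9 CPM in shTAZ FY5 and 193 and 237 CPM in shTAZ FY1 and FY3, and at 23.7 CPM in shC FY5 and 184 and 165 CPM in shC FY1 and FY3. Mcm6, of the same helicase, fell by 1.69 (SE 0.22, edgeR adjusted p = 5.43e-06) and Kif2c, a mitotic kinesin gene, by 1.75 (SE 0.24, edgeR adjusted p = 9.48e-06).

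Of 20 cholesterol synthesis genes, 13 fell and 0 rose in FY5, with a median log2 difference of −1.21. Acat2, an acetyl-CoA acetyltransferase gene, was at 7.54 CPM in shTAZ FY5 and 52.7 and 47.6 CPM in shTAZ FY1 and FY3, and at 6.18 CPM in shC FY5 and 68.0 and 57.2 CPM in shC FY1 and FY3. Of 16 secretory epithelial genes 9 fell and 1 rose, and of 26 epithelial junction and keratin genes 9 fell and 0 rose. The shares over all genes were 10.1% fallen and 8.73% risen. Krt14, a basal keratin gene, was at 8.13 CPM in shTAZ FY5 and 56.9 and 105 CPM in shTAZ FY1 and FY3, and at 9.79 CPM in shC FY5 and 60.4 and 128 CPM in shC FY1 and FY3 (log2 difference −3.21, SE 0.28, edgeR adjusted p = 3.94e-09). Crip1, which encodes a cysteine-rich LIM protein, fell by 2.85 (SE 0.24, edgeR adjusted p = 2.21e-09).

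**Figure D5:**
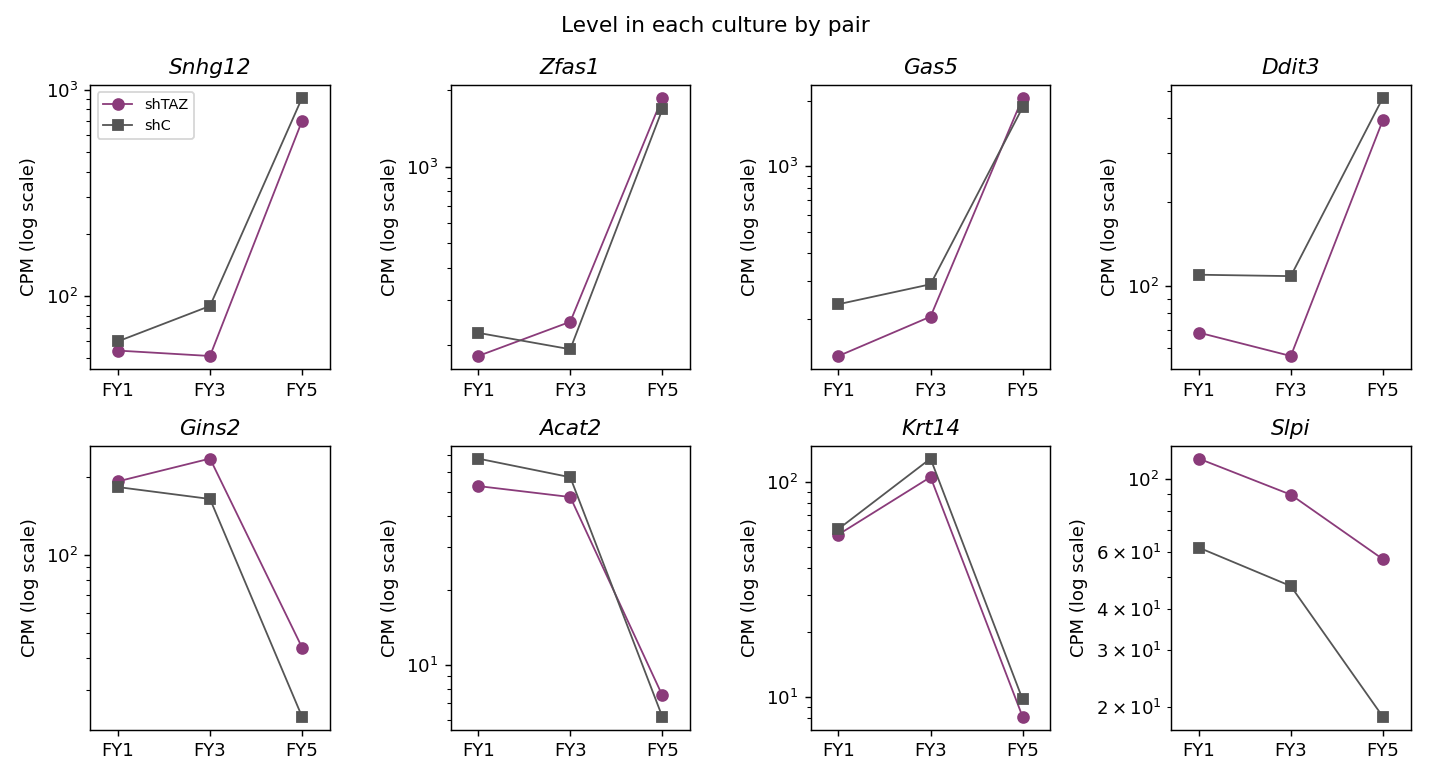
Level in CPM on a log axis of 8 genes in FY1, FY3 and FY5, with shTAZ (circles) and shC (squares) as separate lines. Snhg12, Zfas1, Gas5 and Ddit3 were high in FY5 in both lines, Gins2, Acat2 and Krt14 were low there, and Slpi was higher in shTAZ in each pair and lowest in FY5.

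The knockdown difference itself was compared between FY5 and the other pairs with an interaction term, which has 1 residual degree of freedom. Of 9828 genes 2 were called (0.0204%), Mir692-1 (−8.37, SE 1.20, edgeR adjusted p = 8.24e-06) and Pin4 (5.83, SE 1.19, edgeR adjusted p = 0.025), and 299 had an unadjusted p under 0.05. Pin4, a peptidyl-prolyl isomerase gene on chromosome X, had 264 counts in shTAZ FY5 and 0 and 1 in shTAZ FY1 and FY3, and 346 counts in shC FY5 and 33 and 156 in shC FY1 and FY3. Copies of the end of the Pin4 transcript were not searched, so that its counts may be uncertain, like those of Gapdh and Mir692-1. In simulated data without other effects of line or pair, 5 of 99 genes with an interaction of 1 on the log2 scale were called and 35 of 99 with one of 2. Of 26 genes of mixed sign with at least 1 log2 CPM in each pair, FY5 was the odd pair for 14, FY3 for 5 and FY1 for 7. The order depended on the cut-off. With at least 0.5 log2 CPM in each pair, FY5 was the odd pair for 107 of 385 genes, FY3 for 133 and FY1 for 145. Gstm5, a glutathione transferase gene, had 50 counts in shTAZ FY5 and 6 in each of shTAZ FY1 and FY3, and 27 counts in shC FY5 and 109 and 110 in shC FY1 and FY3. Aste1 went the opposite way, with 15 counts in shTAZ FY5 and 14 and 15 in shTAZ FY1 and FY3, and 127 counts in shC FY5 and 26 and 36 in shC FY1 and FY3. Wwtr1 had an interaction of −0.18 (SE 0.72, edgeR adjusted p = 1).

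The same lines gave 4 shTAZ and 4 shC tumours, grown in the mammary fat pad of mice fed doxycycline, which the choice of concordant genes did not use. Wwtr1 was at 22.1, 13.1, 17.1 and 25.6 CPM in shTAZ tumours, against 60.2, 28.9, 42.4 and 27.5 CPM in shC tumours, with no overlap (log2 fold change −1.03, SE 0.30, edgeR adjusted p = 0.923). Over 9196 genes 0 were called (0%), 366 (3.98%) had an unadjusted p under 0.05 and DESeq2 called 4. Of 2123 concordant genes tested in tumours, 57.9% had the sign they had in culture, against 55% of all 8084 genes, and the share was 56.1% for the higher and 59.6% for the lower genes. With at least 0.5 log2 CPM in every pair it was 82 of 129 genes (63.6%), and with at least 0.75 it was 21 of 27 (77.8%). Genes are not independent replicates and no test was made of these shares. In bulk tumours fewer cells of a type and less RNA per cell cannot be told apart. Ccn2 was at 57.2, 48.3, 27.5 and 31.2 CPM in shTAZ tumours and at 116, 37.5, 56.8 and 62.3 CPM in shC tumours, overlapping (log2 fold change −0.72, SE 0.34, edgeR adjusted p = 0.923). Rpl29 was at 7.26, 6.96, 4.28 and 6.41 CPM in shTAZ tumours and at 31.4, 25.8, 2.12 and 10.9 CPM in shC tumours (−1.50, SE 0.61, edgeR adjusted p = 0.923). Slpi (0.37, SE 0.42, edgeR adjusted p = 0.932) and Polr2a (0.27, SE 0.18, edgeR adjusted p = 0.923) overlapped between the groups of tumours.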

How the data were processed

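RNA of 6 cultures and 8 tumours was sequenced by MARS-seq, which counts the 3′ ends of transcripts. Per the submitters' processing notes and the study's methods, the authors used cutadapt for trimming, STAR for alignment to mm10 and HTSeq for raw counts per gene. The deposited table of cultures lists 11793 genes with a total count of at least 6. The deposited tables also hold a signal per library (counts divided by the authors' DESeq2 size factors), regularized log2 values and, for cultures, log2 values the authors corrected with sva, and the authors' own comparison columns (fold changes, p-values, adjusted p-values and pass marks), none of which were used. Column names gave the sample of each column used. The total count per culture was 2243071 to 14815813.

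Counts were analysed in R 4.3.3 with edgeR 4.0.16. Genes passed filterByExpr, libraries were scaled by TMM, and quasi-likelihood F tests were adjusted by Benjamini-Hochberg with a threshold of 0.05. The pair was a block with no surrogate variable, which leaves 2 residual degrees of freedom. The authors fitted DESeq2 with sva. Standard errors were taken from the fold change and the F statistic. Each test was checked on simulated counts with the real library sizes and fitted dispersions, in which only the tested effect was present. Deviations of cultures from their group means correlated within pairs (r = 0.37, 0.20 and 0.64 over 9035 genes), and shTAZ FY3 correlated slightly more with shC FY1 (0.26) than with shC FY3. The pairing comes from the code prefixes and replicate numbers in the labels. Log2 CPM used a prior count of 2. The table's gene Taz is tafazzin, and TAZ is Wwtr1. Copies of transcript ends were searched with blastn in GENCODE M21, on strand plus. Whether counting used strand is not given in the sources used here, so reads of Wwtr1 and of Gm16016 on the other strand of its locus cannot be told apart.

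The comparison, the 32 gene lists and the members were chosen with earlier results of these data known. Genes named are a fixed set of TAZ-related genes, all called genes (at most 10 per direction), the 12 concordant genes per direction with the largest smallest difference, up to 4 concordant members per list, the 10 genes per direction with the largest FY5 difference in both lines and the 5 per direction whose FY5 difference opposed the others. Other list members were named after their values were seen. Alternatives were DESeq2 1.42.0, RLE factors, library totals, other filters on low counts, thinning to the shallowest culture, no block, 1 surrogate variable (sva 3.50.0), another prior count and leaving out each pair or tumour. The counts for single lists under these settings and the concordant count without each pair were added after seeing the data. Values of some genes that these rules name are not reported here.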

Additional observations from a re-analysis of the deposited data

Results flagged for a closer look

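The difference between shTAZ and shC cultures in FY5 differed from that in FY1 and FY3 for 2 genes by the interaction test. For Mir692-1 the knockdown difference in FY5 minus that in FY1 and FY3 was −8.37 on the log2 scale, with 3550 counts in shC FY5 and at most 12 in every other culture. For Pin4 it was 5.83, with 0 and 1 counts in shTAZ FY1 and FY3. Among the 12 sets of 4 tumour values checked, 1 held a value far from the others, and chance flags about 1 in 20 such sets. The value was Gapdh at 601 CPM in shC tumour 1 beside 16.1 to 18.8 CPM in the other 3 shC tumours. That tumour also had by far the deepest tumour library, at 22364483 counts, and the part of depth was not tested.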

How the results depend on the processing

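The paired comparison called 6 genes as reported, 0 with library totals in place of TMM, 0 in thinned counts, 21 with no filter on low counts and 3 when each culture had to hold 10 counts or more. With no replicate block it called 0 genes (120 with an unadjusted p under 0.05), so that the calls depend on the pairing, and with no block and 1 surrogate variable it called 3. Without 1 pair it called 2 to 32. Wwtr1 had a log2 fold change of −1.97 with library totals (edgeR adjusted p = 0.0586), −1.55 in thinned counts (0.973) and −1.99 with no replicate block (1), and −2.18 to −1.81 without 1 pair. FY5 against FY1 and FY3 called 933 genes in thinned counts and 239 in shTAZ cultures alone. The interaction called 1 gene with DESeq2, RLE factors, library totals or a mean count of at least 20, 5 with no filter, 0 when each culture had to hold 10 counts or more, and 26 in thinned counts, 0 of which were called in the full counts. The cause was not tested. The concordant count was 4234 to 4850 when 1 pair was left out, since only 2 signs then have to match. In tumours DESeq2 called 4 genes, and the share of concordant genes with the same sign was 53.6% to 59.3% without 1 tumour, lowest without shTAZ tumour 4, where the share over all genes was 52.6%. No named gene that was checked under these settings changed direction, but many named genes were not checked. The split between higher and lower turned in 2 results. Concordant genes were 1079 higher and 1287 lower as reported and 1278 and 1091 in thinned counts. FY5 calls were 858 higher and 992 lower as reported and 940 and 831 with library totals. Of 301 values over 27 named genes in the paired comparison, 265 kept their side of the threshold, 27 lost a call and 9 gained one; the 187 values of 18 genes in the FY5 comparison all kept theirs. The shTAZ libraries FY1 and FY3 limit the depth, and genes with few counts there had the widest spread.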
